A study of Mus musculus with 16 samples.

Results

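The mouse homeobox genes Msx1, Msx2, Gsx1, Gsx2, Vax1, Vax2, Gbx1, Gbx2, Barhl1 and Barhl2 were taken as a group of 10 genes out of the 22225 protein-coding genes of the GENCODE annotation of NCBIM37, the assembly also called mm9. A ChIP-seq peak was given to a gene when it overlapped the gene or lay within 5 kb of it. By this rule 20 of the 4992 peaks listed for Jarid2 and 22 of the 4502 peaks listed for Jarid2-K116me2 belonged to the 10 genes. Jarid2 is a cofactor of PRC2, and Jarid2-K116me2 is the form of Jarid2 that is di-methylated on the lysine K116. Both lists came from 1 ChIP each in E14, a line of mouse ESC grown undifferentiated in serum and LIF. H3K27me3 was mapped in 12 further samples, made of 6 groups with 2 biological replicates each. The Jarid2 KO line was Jarid2-/-, the line named WT was the same Jarid2-/- line rescued with a BAC carrying Jarid2, and the line named K116A was that Jarid2-/- line rescued with a BAC carrying Jarid2 with this lysine changed to alanine. All 3 lines therefore share the deletion of the endogenous gene, and WT here is a rescue. They were examined as undifferentiated ESC and as embryoid bodies (EB) after 8 days without LIF by the hanging drop method. The identity of the cells was not checked on expression, which was not analysed here.

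PRC2 deposits H3K27me3, a histone mark of silenced developmental genes, and in ESC it sits at the starts of many genes for transcription factors that are used later in the embryo. The 10 genes encode homeodomain proteins of this kind. Msx1 and Msx2 act downstream of BMP signals in limb, tooth and skull. Gsx1 and Gsx2 pattern the ventral forebrain, Vax1 and Vax2 the ventral eye and the optic nerve, and Gbx1 and Gbx2 the hindbrain and spinal cord. Gbx2 is in addition a target of LIF signaling in ESC. Barhl1 and Barhl2 act in neurons of the cerebellum, inner ear, retina and spinal cord.

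Stretches rich in CpG dinucleotides are a known feature of PRC2 targets in mammals, so 5 stretches of 200 bases are shown with every CpG in capitals, all read from NCBIM37. The first 4 are the bases just upstream of the annotated start of a gene, on the strand of the gene. They were chosen as the upstream stretch richest in CpG (Barhl2), the poorest (Gbx2), the only one of the 10 outside a Jarid2-K116me2 peak (Barhl1), and that of Msx2, whose H3K27me3 differed most between the lines. The last, on the forward strand, is the middle of a peak of Barhl2 that was listed for Jarid2 and not for Jarid2-K116me2.
Barhl2 upstream, chr5:106887470-106887669, reverse strand: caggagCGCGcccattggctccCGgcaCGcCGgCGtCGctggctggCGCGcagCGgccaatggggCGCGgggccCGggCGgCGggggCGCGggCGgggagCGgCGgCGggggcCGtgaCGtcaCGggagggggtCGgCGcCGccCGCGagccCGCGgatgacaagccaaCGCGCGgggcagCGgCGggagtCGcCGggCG
Gbx2 upstream, chr1:91829866-91830065, reverse strand: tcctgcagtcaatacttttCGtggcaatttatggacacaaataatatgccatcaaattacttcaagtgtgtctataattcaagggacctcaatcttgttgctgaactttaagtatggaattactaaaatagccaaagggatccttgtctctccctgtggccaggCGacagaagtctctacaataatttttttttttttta
Barhl1 upstream, chr2:28772189-28772388, reverse strand: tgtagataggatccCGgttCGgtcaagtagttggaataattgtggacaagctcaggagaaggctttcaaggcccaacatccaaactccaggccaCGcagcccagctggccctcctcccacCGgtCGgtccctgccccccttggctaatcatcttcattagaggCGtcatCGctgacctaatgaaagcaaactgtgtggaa
Msx2 upstream, chr13:53568444-53568643, reverse strand: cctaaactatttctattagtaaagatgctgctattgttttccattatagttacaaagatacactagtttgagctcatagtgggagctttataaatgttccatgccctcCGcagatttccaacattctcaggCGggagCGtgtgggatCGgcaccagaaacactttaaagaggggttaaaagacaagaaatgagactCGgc
Barhl2 Jarid2-only peak, chr5:106891562-106891761: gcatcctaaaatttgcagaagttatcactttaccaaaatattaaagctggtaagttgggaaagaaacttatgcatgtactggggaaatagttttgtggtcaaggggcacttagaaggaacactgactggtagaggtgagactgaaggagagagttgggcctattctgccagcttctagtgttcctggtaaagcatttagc

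Barhl2 had 39 CpG in its 200 upstream bases, Msx1 19, Vax2 12 and Gsx1 10, and the other 6 genes had between 2 (Gbx2) and 7. The median of the 10 genes was 7, equal to the median of 22220 protein-coding genes, so the bases just upstream of these starts were not richer in CpG than usual. The motif TAATTA, the core bound by many homeodomains, which reads the same on both strands, was in none of the 10 stretches and in 3.48% of all. The middle of the Jarid2-only peak of Barhl2 held 0 CpG.

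All 10 genes carried a peak of Jarid2 and a peak of Jarid2-K116me2. Over all protein-coding genes 18.1% had a Jarid2 peak and 16% a Jarid2-K116me2 peak. The score listed for a peak is the log10 of its p-value multiplied by minus 10. It grows with depth and piles up at 3100, which is called the ceiling here. A Jarid2 peak at the ceiling was present at 7 of the 10 genes, and at 3.6% of all genes. A Jarid2-K116me2 peak at the ceiling was present at 8 of the 10 genes, and at 4.24% of all genes. With 1 sample per antibody none of these values has a replicate error and no test was made.

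Msx1 lies at chr5:38211724-38215822 and had the most uniform pattern, a single peak at the ceiling for each antibody. The Jarid2 peak of 13936 bp ran from 5384 bp upstream of the start to 8551 bp downstream of it and covered the whole gene. The Jarid2-K116me2 peak measured 13570 bp. Gsx1 (chr5:148000272-148002523), Vax1 (chr19:59240677-59245626) and Gbx1 (chr5:24008575-24033094) also had 1 peak per antibody, at the ceiling and over the start. Gbx1 spans 24520 bp, and its Jarid2 peak of 4539 bp was limited to the start, from 1823 bp upstream to 2715 bp downstream, so that only 13.1% of the gene and its flanks was covered, against 96.1% for Msx1.

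Gsx2 (chr5:75471489-75473918) had a Jarid2 peak at the ceiling over its start and a second one, of score 780.78, from 7324 to 4021 bp upstream. Vax2 (chr6:83661258-83688298) had 1 Jarid2 peak of 14380 bp and score 3092.14, which also covered the starts of the overlapping transcripts Vax2os1 and RP23-252I12.4, so these peaks cannot be given to Vax2 alone. At Gbx2 (chr1:91824537-91829865) the peak at the ceiling covered the start of the neighbouring D130058E05Rik as well. Gbx2 had 3 further Jarid2 peaks, of scores 876.01, 152.35 and 71.83.

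Barhl2 (chr5:106881533-106887469) had the longest Jarid2 peak of the group, 14986 bp at the ceiling, and a second strong one of score 2930.64 whose near edge was 4756 bp upstream of the start. The lowest of the 10 genes were Msx2 and Barhl1. The highest Jarid2 score was 2073.07 at Msx2 (chr13:53562250-53568443) and 997.43 at Barhl1 (chr2:28763199-28772188), in both cases over the start of the gene. Thus within pairs of paralogs Msx1 and Barhl2 were at the ceiling and Msx2 and Barhl1 below it.

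**Figure D1:**
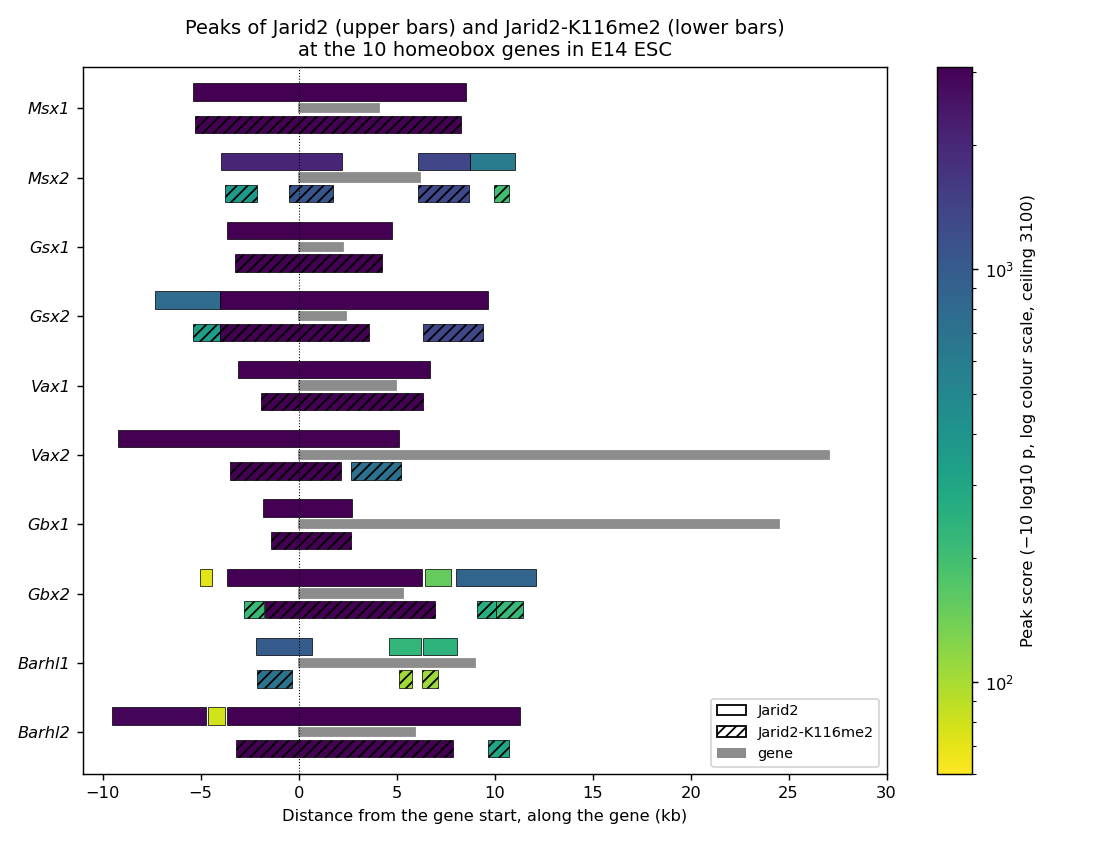
Peaks of Jarid2 (plain bars) and Jarid2-K116me2 (hatched bars) at the 10 genes in E14 ESC, by distance from the gene start along the gene in kb. The colour is the peak score on a log scale up to the ceiling of 3100, and grey bars are the genes. At 9 of the 10 genes a peak of each antibody crosses the start, and at Barhl1 the Jarid2-K116me2 peak ends 336 bp upstream of it.

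The second comparison asked whether the methylated form sat where total Jarid2 sat. Of the 20 Jarid2 peaks of the 10 genes, 18 overlapped a Jarid2-K116me2 peak by at least 1 bp, and all 22 Jarid2-K116me2 peaks overlapped a Jarid2 peak. In the complete lists these shares were 79.1% and 98.7%. The 2 peaks without a Jarid2-K116me2 partner were the peak of score 71.83 at Gbx2 and the peak of score 78.19 at Barhl2. Both scores are below 91.86, the lowest score listed for Jarid2-K116me2. When at least 50% of each peak had to be shared, 10 of the 20 peaks still counted.

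Although the positions were shared, the Jarid2-K116me2 peaks at these genes were shorter than those of Jarid2, and some were broken up. Overlapping peaks of both lists were joined into regions, of which 17 at the 10 genes held both antibodies. The Jarid2-K116me2 peaks covered less length than the Jarid2 peaks in 17 of the 17 regions, with a median ratio of 0.778. Over all such regions the length was lower in 92.4% and the median ratio was 0.823, so the direction is that of the whole list. The Jarid2 peaks of the 10 genes were also longer than usual, with a median of 4288 bp against 1877 bp in the complete list. The part of this length in the shares that follow was not tested. More than 1 Jarid2-K116me2 peak was found in 6 of the 17 regions (35.3%), against 9.24% of all regions. It was found in 7 of 27 regions (25.9%) at other homeobox genes of the same class, with no test of the difference. At Msx2, for example, the Jarid2 peak of 6178 bp over the start held a Jarid2-K116me2 peak of 2262 bp and score 1074.1 over the start and another of 1662 bp and score 374.58, which began 2112 bp upstream. At Gsx2 the Jarid2 peak of 13676 bp held a Jarid2-K116me2 peak of 7562 bp over the gene and one of 3079 bp and score 1350.89 beyond it.

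Of the 17 regions 8 reached the ceiling in at least 1 list, and no ratio was taken for them. Where both lists were at the ceiling, the scores cannot be compared. In the region of Vax2 only Jarid2-K116me2 was at it, with 3100 against 3092.14 for Jarid2, so there Jarid2-K116me2 was not the lower. The 9 regions below the ceiling belonged to Msx2, Gsx2, Gbx2, Barhl1 and Barhl2, and the score was lower for Jarid2-K116me2 in all 9. Over all 2992 regions below the ceiling it was lower for Jarid2-K116me2 in 47%. The median of the log2 ratio of Jarid2-K116me2 over Jarid2 was -1.13 in the 9 regions and 0.03 over all regions. Regions are not replicates, several of the 9 belong to the same gene, scores grow with depth, and more reads were stated for Jarid2 than for Jarid2-K116me2, so these values compare 2 samples and no test was made.

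The ratio was most even in the region 7.4 kb downstream of the start of Msx2, where Jarid2 had 1350.2 and Jarid2-K116me2 1308.57, a log2 ratio of -0.05. It was lowest in the region 10.1 kb downstream of the start of Gbx2, with 876.01 and 255.67, a log2 ratio of -1.78. Only 2 of the 9 regions contained the start of a gene. They were that of Msx2, with 2073.07 for Jarid2 and 1074.1 for Jarid2-K116me2, and that of Barhl1, with 997.43 and 688.87. The others lay upstream of the gene, at or beyond its end or, for Barhl1, within it. In the Barhl2 region 7.1 kb upstream, where the scores were 2930.64 and 2015.83, the Jarid2-K116me2 peak itself lay beyond the 5 kb limit and is not among the 22.

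**Figure D2:**
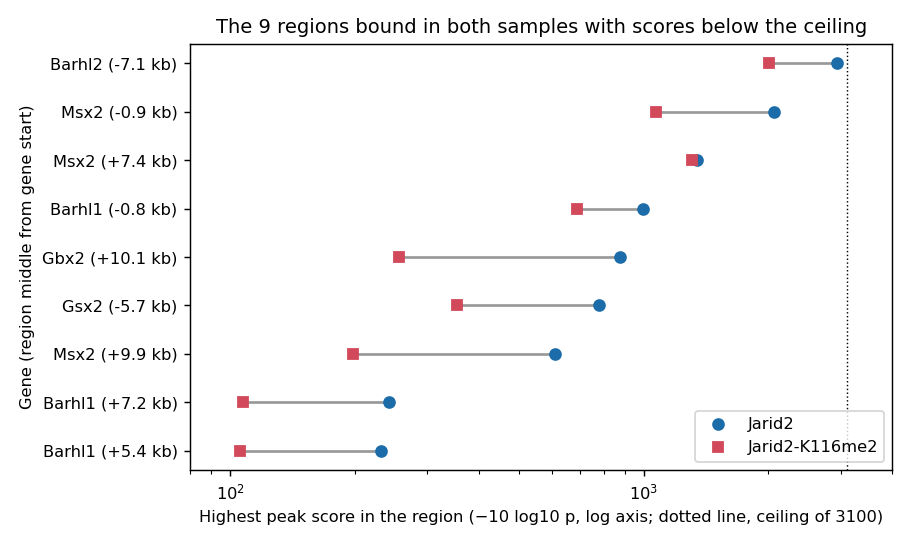
Highest score of Jarid2 (circles) and Jarid2-K116me2 (squares) in each of the 9 regions below the ceiling, on a log axis, with the distance of the middle of the region from the gene start. The square lies to the left of the circle in all 9 regions, closest at Msx2 (+7.4 kb) and farthest at Gbx2 (+10.1 kb).

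The parts of a region that were covered by both antibodies were richer in CpG than the parts covered by Jarid2 alone in 17 of the 17 regions, with medians of 4.221 and 1.402 CpG per 100 bp. This was the case for 93.2% of the 3517 regions of the complete lists with at least 100 bases of each kind, so it is no property of these genes in particular. The smallest contrast was at Barhl1, where the region over the start had 5.52 CpG per 100 bp under both antibodies and 5.06 under Jarid2 alone. The Jarid2-only peak of Barhl2, whose middle is printed above, had 1.02 CpG per 100 bp.

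Other homeobox genes of the same class outside the Hox, Dlx and Nkx families were looked at in the same way. Of 23 such genes 21 had both antibodies, and 18 of these were at the ceiling for both lists. The exceptions were Noto, a gene of the notochord, and Nanog, which is active in ESC. Msx3, the third Msx gene of the mouse, was at the ceiling for both. Their 9 regions below the ceiling had a median log2 ratio of -0.19, with 8 of the 9 lower for Jarid2-K116me2. Among 13 genes expressed in ESC only Esrrb had peaks, whose highest scores were 2868.23 with the antibody to total Jarid2 and 3072.68 with that to Jarid2-K116me2.

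H3K27me3 was then compared at the same genes. The 12 lists held between 1478 and 14125 broad peaks, which covered from 2.31 to 55.0 Mb. The first replicate of ESC WT stood apart, with the 1478 peaks, while the second held 8579. It was nonetheless the most deeply sequenced of the ESC samples by the reads that the study states after removal of duplicates, and the methods of the study name the second replicates as those of higher quality. The lists hold no read numbers per peak, and the part of depth in the values below was not tested. The first measure is the percent of the gene and its 5 kb flanks that was covered by broad peaks, and it cannot exceed 100%. The second is the highest score of a broad peak in this window, as MACS2 wrote it. In bulk samples fewer cells with the mark and less mark per cell cannot be told apart.

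In ESC all 10 genes carried an H3K27me3 peak in each sample except the first replicate of ESC WT, in which Vax2 and Barhl1 had none. Leaving out this sample, Msx1, Gsx2 and Barhl2 were covered over 74.4% to 100% of the window in ESC, and Msx2, Gsx1 and Vax1 over 54.3% to 94.9%. Gbx1, Gbx2 and Vax2 were covered over 10.1% to 30.4% in the same 5 samples. Barhl1 was in between, from 41.4% to 62.2%. The order within each of these sets is not clear, since neighbouring genes overlapped between samples. The percents also depend on the length of the window. It was 37041 bp at Vax2 and 34520 bp at Gbx1, but 15329 bp at Gbx2 and 12252 bp at Gsx1. In ESC KO replicate 2 the peaks had a summed length of 14926 bp at Vax2, 12055 bp at Gsx1, 5905 bp at Gbx1 and 3970 bp at Gbx2. Among the 13 genes expressed in ESC, between 1 and 4 had a peak in any sample, and the median was 0% in all 12 samples.

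Gbx2 had the largest difference between the stages. In ESC its window was covered over 18.4% and 25.9% in KO, 3.33% and 24.7% in WT, and 30.4% and 29.2% in K116A. In EB it was covered over 100% and 100% in KO, 100% and 80.8% in WT, and 100% and 100% in K116A. The stages did not overlap in any line, and in ESC the peak was a narrow one, which in ESC KO replicate 2 ran from 2428 bp upstream to 1541 bp downstream of the start. In EB the peaks reached summed lengths of 19667 to 34940 bp, beyond both ends of the gene.

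Gbx1 also had separate stages in each line. It was covered over 10.1% and 17.1% in ESC KO, 3.86% and 17.1% in ESC WT, and 14.2% and 14.5% in ESC K116A. In EB the values were 41.1% and 46.4% in KO, 25.8% and 21.0% in WT, and 28.1% and 41.8% in K116A. All EB values were above all ESC values.

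**Figure D3:**
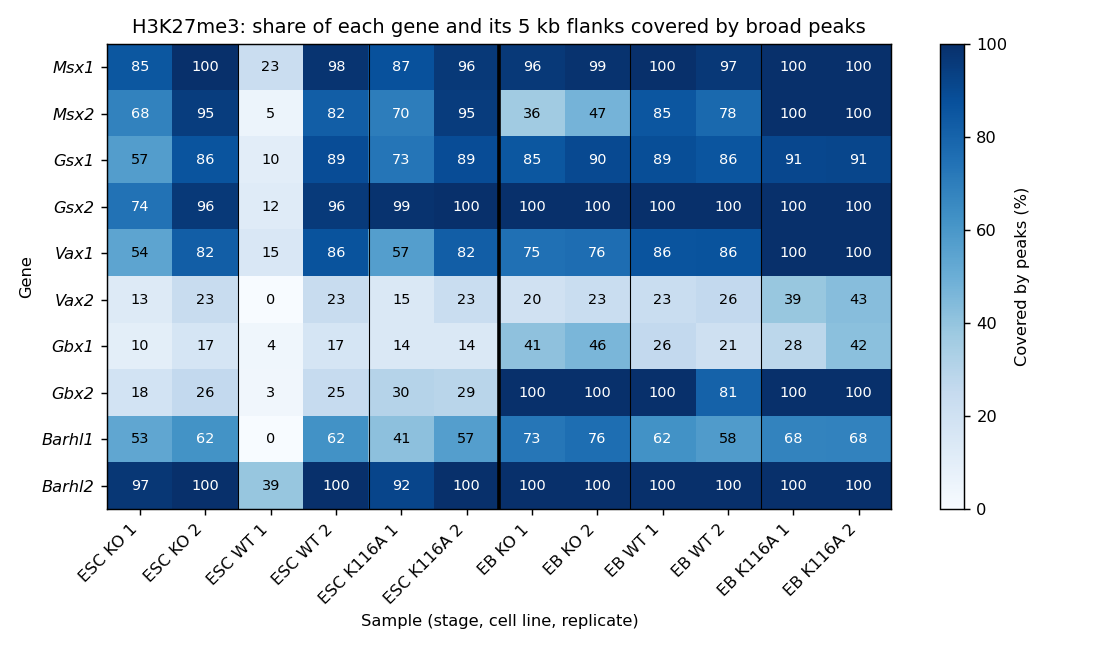
Percent of each gene and its 5 kb flanks covered by H3K27me3 broad peaks (number and colour) in the 12 samples, ESC left and EB right of the thick line. Gbx2 goes from at most 30.4% in ESC to at least 80.8% in EB, Msx2 is at 36.5% and 47.4% in EB KO and at 100% in both EB K116A samples, and the first replicate of ESC WT is pale throughout.

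The difference between the stages was tested by an exact two-sided permutation of the stage labels within each line, which has 216 assignments and a smallest p of 0.0093, with Benjamini-Hochberg adjustment over the 9750 protein-coding genes with an H3K27me3 peak in at least 1 sample. No gene reached an adjusted p of 0.05, so 0% were called in either direction, and the smallest adjusted p was 0.0919. Before adjustment p was under 0.05 for 2043 genes, 4 of them in the group. Gbx2 was higher in EB by 74.8 points and Gbx1 by 21.2 points, each in 6 of 6 same-numbered pairs, and both were at the smallest p the permutation allows, with an exact adjusted p of 0.0919. Gsx2 was higher by 20.5 points and Barhl1 by 21.6 points, with an exact p of 0.0278 and an adjusted p of 0.15 for each. The remaining 6 genes had larger p-values. All 10 differences were positive, with a median of 20.8 points, whereas 7308 of all 9750 genes tested were higher in EB, with a median of 1.14 points over all.

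These differences rested in part on the first replicate of ESC WT. Without it the difference was 71.2 points for Gbx2 and 19.04 for Gbx1, but it went from 17.0 to 4.50 points for Msx1, from 21.0 to 7.95 for Gsx1, from 20.5 to 6.47 for Gsx2, from 24.5 to 12.6 for Vax1, from 21.6 to 11.2 for Barhl1 and from 12.03 to 1.90 for Barhl2. Msx2 changed sign, from 5.30 to -7.51. Line by line, EB lay above ESC without overlap at Gsx2, Gbx1, Gbx2 and Barhl1 in KO, against 38.9% of all genes tested. The same was found at 28.3% of tested genes with a Jarid2 peak and at 6 of the 23 other homeobox genes. In WT EB lay above at Gsx2, Gbx1 and Gbx2, against 16.8%, 17.6% and 5 of 23 in these sets. In K116A EB lay above at 8 genes, all but Gsx2 and Barhl2, against 28.3%, 37.0% and 12 of 23. Only Msx2 in KO was lower in EB, against 4.13%, 8.85% and 3 of 23. Within the second replicates alone the difference was 67.0 points for Gbx2 and 20.2 for Gbx1, and lay between -15.5 (Msx2) and 7.43 (Vax2) for the other 8 genes.

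The 3 lines were compared within EB, where no sample stood apart in this way. With 2 samples against 2 a two-sided exact permutation test cannot go below 0.33, so the values are given with no test. Groups are called separate here when all values of one lie above all values of the other. Comparisons with WT share the same 2 WT samples.

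For the highest score, EB K116A was above EB WT at all 10 genes. Among all genes tested this was so for 31.9%, and among those with a Jarid2 peak for 56.8%. By the reads stated in the study both EB WT libraries were shallower than those of EB K116A and EB KO, so the direction is also that of the read number. In ESC the median score of the 10 genes was lowest, 52.6, in WT replicate 1, which had the most reads. It was highest, 120.0, in KO replicate 2, which had the fewest. The part of depth in the scores was not tested. The mean ratio of EB K116A over EB WT had a median of 1.89 over the 10 genes and 1.53 over the 2463 tested genes with a Jarid2 peak and a peak in both EB WT samples. Of the other homeobox genes 19 were separate in the same direction. When the score was replaced by its rank among all genes in the sample, 6 of the 10 remained above WT, against 18.6% of all genes tested and 30.5% of those with a Jarid2 peak.

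Gsx2 had the highest mean score of the group in EB K116A, from 235.0 and 299.9, against 129.4 and 105.6 in EB WT and 140.5 and 195.8 in EB KO. Vax1 had the largest ratio to WT, 2.34, from 166.5 and 202.2 in EB K116A and 75.4 and 82.3 in EB WT. At Vax1 the values in EB KO, 77.6 and 95.5, overlapped those of WT. EB K116A was also above EB KO at 7 of the 10 genes, against 14.3% of all genes tested and 26.5% of those with a Jarid2 peak. The 3 without separation were Gsx1, Gbx2 and Barhl1.

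EB KO was above EB WT at 6 genes, which were Gsx1, Gsx2, Gbx1, Gbx2, Barhl1 and Barhl2. This is close to the 45.8% of all genes tested and the 49.7% of tested genes with a Jarid2 peak. The largest ratio was at Gbx2, 1.66, with 132.5 and 169.1 in EB KO and 94.1 and 87.1 in EB WT. EB KO was below EB WT at Msx1 and Msx2, a direction found at 3.71% of all genes tested and at 6.21% of those with a Jarid2 peak. At Msx1 the scores were 69.9 and 82.5 in EB KO and 97.6 and 93.1 in EB WT. The lists of EB KO held the most peaks of the 3 lines in EB, and on the rank scale EB KO was below EB WT at 7 of the 10 genes and above it at none, against 38.8% of all genes tested and 47.4% of those with a Jarid2 peak that were below. Of the 6 genes above WT in score, Gsx2, Gbx1 and Barhl2 were below it in rank, and Gsx1, Gbx2 and Barhl1 were not separate.

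**Figure D4:**
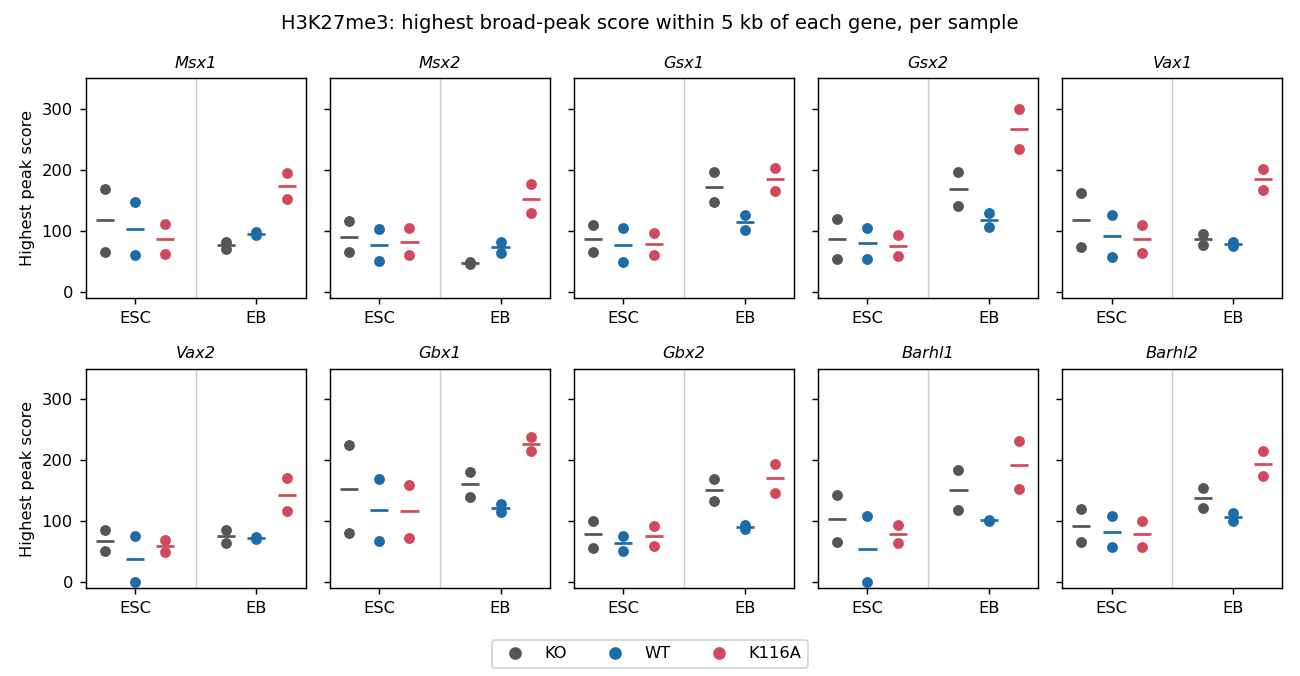
Highest score of an H3K27me3 broad peak within 5 kb of each gene, as MACS2 wrote it, with 1 point per sample, the mean of the 2 replicates as a bar, and 0 where no peak was listed. In EB both K116A points lie above both WT points at all 10 genes, while in ESC the KO and K116A points are not separate from the WT points at any of the genes. Of all genes tested, 2.84% were higher in ESC KO and 3.96% in ESC K116A than in ESC WT.

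The covered percent gave fewer separate genes, since several windows were full. EB K116A was above EB WT at Msx2, Gsx1, Vax1, Vax2, Gbx1 and Barhl1, against 26.8% of all genes tested and 44.6% of those with a Jarid2 peak. Vax1 was covered over 100% in both EB K116A samples, over 86.3% and 86.4% in EB WT and over 75.3% and 76.2% in EB KO. Vax2, the longest gene of the group, was covered over 39.0% and 43.1% in EB K116A, 23.3% and 25.9% in EB WT, and 19.8% and 23.3% in EB KO. Against EB KO, EB K116A was above at Msx1, Msx2, Gsx1, Vax1 and Vax2 and below at Barhl1. Over all genes tested 11.7% were above and 33.3% below, and over those with a Jarid2 peak 22.3% were above and 22% below.

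EB KO was above EB WT in covered percent at Gbx1 and Barhl1, against 46.1% of all genes tested and 44.5% of those with a Jarid2 peak. At Barhl1 the values were 72.9% and 76.1% in EB KO and 62.1% and 57.9% in EB WT. EB KO was below EB WT at Msx2 and Vax1, against 3.83% of all genes tested and 7.5% of those with a Jarid2 peak, and without EB KO replicate 2 it was below at 5 genes. Of the other homeobox genes 4 were lower in EB KO than in EB WT. On the rank of the covered percent within the sample, EB KO was above EB WT at 0 genes of the group and below it at 7. No share of all genes tested is given for this rank or for the count without EB KO replicate 2. Both therefore describe the members only. In ESC the 2 replicates of a line differed more, and only Gsx2 and Gbx2 were separate, both higher in K116A than in WT, against 3.03% of all genes tested. No gene of the group was separate between ESC KO and ESC WT. Of all genes tested only 0.99% were higher and 0.08% lower in ESC KO. These ESC counts hung on single samples. ESC WT replicate 1 had a peak at only 8.77% of the genes tested. The counts that follow carry no share of all genes and describe the members only. Without ESC WT replicate 2 all 10 genes were higher in KO and in K116A than in WT, and without ESC WT replicate 1, 4 genes were lower in KO and 5 in K116A. Without the first replicate of KO or K116A, 5 and 4 genes were higher than in WT.

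Msx2 was the gene of the group whose lines differed most in covered percent in EB. In EB KO its window was covered over 36.5% and 47.4%, in EB WT over 85.4% and 78.1%, and in EB K116A over 100% in both samples. In ESC it was covered over 68.2% and 94.6% in KO, 5.47% and 82.3% in WT, and 70.0% and 94.9% in K116A. So EB KO lay below ESC KO while EB K116A lay above ESC K116A, with no overlap in either line, a pattern found at 0.4% of all genes tested. Evx1, among the other homeobox genes, had it as well. Evx1 was covered over 0% and 0% in EB KO and over 22.6% and 87.0% in ESC KO. In K116A it was covered over 100% and 100% in EB and over 17.2% and 98.3% in ESC. At Msx2 the peaks in EB KO replicate 1 were 1 of 1845 bp that ended 182 bp upstream of the start and 1 of 4065 bp near the end of the gene. In EB KO replicate 2 the first of these was longer, 2994 bp, and covered the start, from 2068 bp upstream to 925 bp downstream. In the EB K116A samples a single peak of 24041 or 27828 bp ran over the whole gene. The highest scores followed the same order, 46.3 and 48.2 in EB KO, 82.2 and 63.8 in EB WT, and 129.0 and 176.7 in EB K116A.

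**Figure D5:**
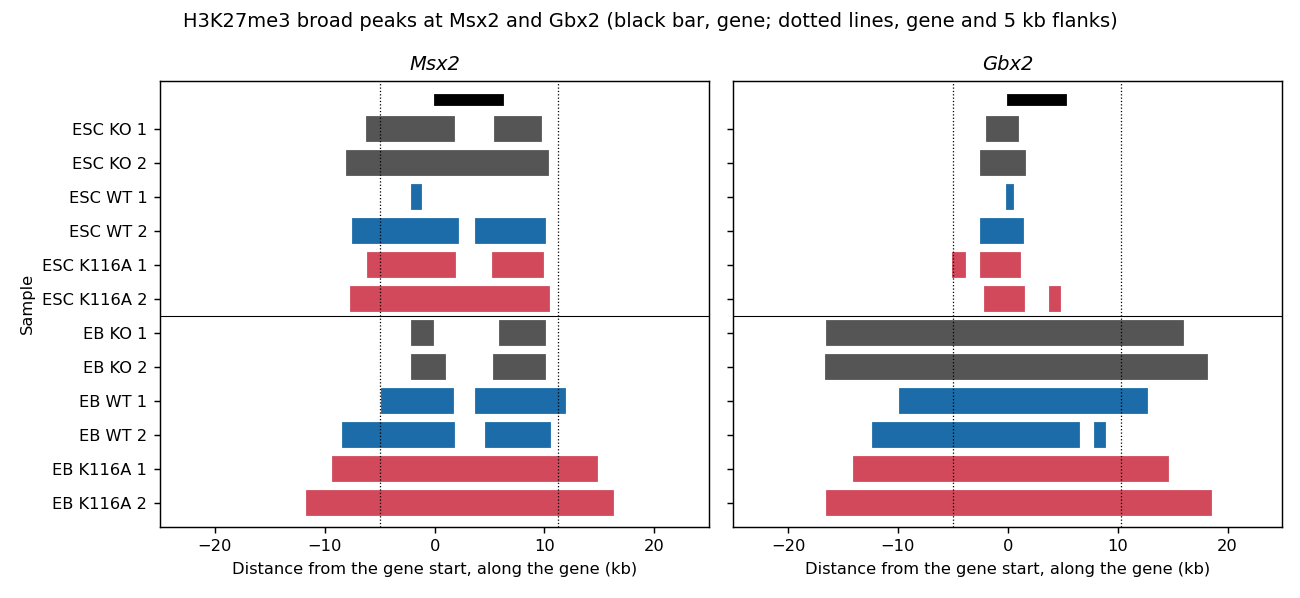
H3K27me3 broad peaks at Msx2 (left) and Gbx2 (right) in the 12 samples, by distance from the gene start along the gene in kb, with the gene as a black bar and dotted lines at the ends of its 5 kb flanks. At Msx2 the peaks are short in EB KO and join into 1 in EB K116A, and at Gbx2 short peaks at the start in ESC are replaced by long ones in EB in each line.

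The genes with the H3K27me3 profile most like that of the group were Hoxc8, Hoxc4 and Hoxc5, neighbours in the Hoxc cluster on chromosome 15. Likeness was measured by Pearson's r over the 12 samples between log2 of the highest score plus 1 of a gene and the median of the 10 genes, among 760 other genes with a peak in each sample. It was 0.998 for Hoxc8, 0.997 for Hoxc4 and 0.997 for Hoxc5, and the median over the 760 genes was 0.899. All points share the depth of their sample, and the 3 Hoxc genes had the same value in 11 of the 12 samples, so these values are a description.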

How the data were processed

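The members and gene lists were chosen with earlier results of these data known. The authors mapped single reads of 100 bp to mm9 with Bowtie2 (2.1.0, per the submitters' processing notes), removed duplicates, and called peaks against input with MACS (1.4.2, FDR 0.15%) for Jarid2 and Jarid2-K116me2 and with the broad mode of MACS2 (2.0.10, FDR 5%) for H3K27me3. Samples were not pooled. The deposited lists hold positions and a score. They hold no fold enrichment, q-value or read number, so the planned measure of fold enrichment was replaced by the highest score, and counting error cannot be given. The supplement of the study states reads per library, which are used here only for their order. The log base of the H3K27me3 score is not given in the sources used here.

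Samples were grouped by GEO's labels. Overlaps, covered percents and exact permutation tests were computed with Python 3.11.15, numpy 2.4.6 and pandas 2.3.3, and were tested on simulated data. Records of 1 gene symbol were joined (2 for Gsx2). All 10 members are named. Among the other homeobox genes, those lacking an antibody, Msx3, and Evx1, which shared a pattern with Msx2, are named. Annotated neighbours are named above where a Jarid2 or Jarid2-K116me2 peak of a member covered their start. The other neighbours within 5 kb were Agap3 at Gbx1, Ddx31 at Barhl1, and U6 and Atp6v1b1 at Vax2. The main test of the stages had the line as its only stratum. Replicate numbers were taken as pairing the stages only in the counts of same-numbered pairs and in the replicate block. The labels do not state what a number shares. Deviations of same-numbered samples correlated at 0.201 (KO), 0.133 (WT) and 0.353 (K116A) over 9750 genes, and the source of these correlations was not tested. The alternatives tried were other windows, overlaps, score minimums, ranks, the replicate block and leaving out each sample. The 2 inputs were not analysed here, and the sequence of 1 Jarid2-only peak is not reported here.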

Additional observations from a re-analysis of the deposited data

Results flagged for a closer look

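The H3K27me3 covered percent of Msx2 moved in opposite directions between the stages in 2 lines. In KO the mean difference of EB minus ESC was -39.5 points, with both EB samples below both ESC samples, and in K116A it was 17.5 points, with both EB samples above both ESC samples. The lines thus differed by 57.0 points. An exact two-sided permutation of the stage labels within each of the 2 lines gave p = 0.0556, which is the smallest p its 36 assignments allow, so the design could not reach 0.05. The gene and the pair of lines were chosen for this pattern after its values were seen. Stages that separate in opposite directions in 2 lines always give this smallest p. It was thus fixed by the choice and adds no support. The same pattern was found at 39 of the 9750 genes tested, Evx1 among them.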

How the results depend on the processing

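All 10 genes kept a peak of each antibody with windows of 1 kb or 10 kb around the gene and of 1 kb around start sites, and with a score of at least 200. Shared peaks numbered 10 when 50% of each peak had to overlap, and 14 of 17 when both lists were limited to scores of 200 or more. The median log2 score ratio was -1.15 with width-weighted scores. No gene of the group was called between EB and ESC under any alternative, including the 12 fits without 1 sample (0 to 0), and with the replicate block, which pairs same-numbered samples, 0 were called and the smallest adjusted p was 0.205. The members higher in EB numbered 6 on the rank scale and 9 to 10 when 1 sample was left out. Msx2 turned to -5.30 points with windows around start sites and to -7.51 without ESC WT replicate 1, with values of -7.51 to 18.1 over the samples left out. On the rank scale (percent ranks) Msx1 turned to -0.093, Msx2 to -1.55, Gsx1 to -0.075 and Barhl2 to -0.12. Barhl2 had a mean covered percent of 88.0% in ESC and 100% in EB, so its rank was lower although its cover was not. The causes were not tested.

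For lines within a stage, the rank of the covered percent gave 0 members higher and 7 lower in EB KO than in EB WT, 3 lower in EB K116A than in EB WT, and 2 higher in ESC KO than in ESC WT, and a common score floor gave 1 higher in ESC K116A than in ESC WT. The rank of the highest score gave 0 higher and 7 lower in EB KO and 6 higher in EB K116A than in EB WT. Leaving out 1 sample gave 2 to 5 members lower in EB KO than in EB WT, with 5 without EB KO replicate 2. In ESC it gave 0 to 10 higher and 0 to 4 lower in KO than in WT, and 2 to 10 higher and 0 to 5 lower in K116A than in WT: 10 were higher in each without ESC WT replicate 2, and 4 and 5 were lower without ESC WT replicate 1. Without ESC KO replicate 1 or ESC K116A replicate 1, 5 and 4 were higher. In EB, leaving out 1 sample kept K116A above WT in score at 10 members. Except for the rank of the highest score, no share of all genes is given beside these alternative counts, so they describe the members only. Alternatives on a fold enrichment or a q-value were not run, and the alternatives on the highest score and on a common score floor were added after seeing the data.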
